A study of Homo sapiens with 4 samples.

Results

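The integrated stress response is represented here by 10 genes, DDIT3, ATF4, ATF3, TRIB3, CHAC1, PPP1R15A, CREBRF, GDF15, CEBPB and SESN2, out of 17687 gene symbols on the array. Each member was taken by its platform gene symbol, and each of the 10 symbols had 1 feature, so no choice between features arose. The members were chosen by their log2 differences between the same 2 groups, which were already known, so their values are given as a description and no test is made on them. Gene expression was measured with Affymetrix Human Clariom S arrays in the human ovarian carcinoma line HeyA8-MDR, which resists several drugs and was grown with 300 ng/ml paclitaxel, 15% serum and 0.1% gentamicin sulfate. There were 2 arrays of cells labelled miR204, given an inhibitor of miR-204-5p, and 2 arrays of cells without that label, given a control microRNA inhibitor. One treatment text, which mentions only the miR-204-5p inhibitor, is attached to all 4 arrays, so the control group rests on the titles and the design text. Both groups are the same cell line under the same paclitaxel selection, and neither the transfection method nor the time after it is given in the sources used here.

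The integrated stress response is the common reaction of a cell to misfolded protein in the endoplasmic reticulum, lack of amino acids, lack of heme, mitochondrial damage or double-stranded RNA. Each of these activates a kinase that phosphorylates the translation factor eIF2alpha. General protein synthesis then slows, while a few messenger RNAs with upstream open reading frames, ATF4 foremost, are translated more. ATF4 is therefore controlled largely at translation, and its protein induces DDIT3 (CHOP), ATF3, TRIB3, CHAC1 and amino acid transporters. PPP1R15A (GADD34) closes the loop by bringing a phosphatase to eIF2alpha. An RNA array reads none of the phosphorylation or translation steps. Changes in how many cells respond and in how much each cell responds cannot be told apart in such bulk RNA.

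The agent under test acts on hsa-miR-204-5p, 22 bases long, whose mature sequence is shown with its seed (bases 2 to 8) in capitals because the inhibitor is directed against this RNA. RefSeq places it on GRCh38.p14 at chr9:70810031-70810052, minus strand. The related hsa-miR-211-5p, at chr15:31065095-31065116 on the minus strand, has the same seed.
hsa-miR-204-5p: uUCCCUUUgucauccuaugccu
hsa-miR-211-5p: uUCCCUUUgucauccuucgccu
The arrays as used here gave no level for either microRNA, and whether the inhibitor reached its target was not checked.

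Each array gave 21448 log2 values, 1 per feature, from RMA, which subtracts background, normalizes and combines the probes of a feature. Array medians were 5.59 and 5.61 with the miR-204-5p inhibitor and 5.65 and 5.68 with the control inhibitor. Differences depended on brightness over all features: the median log2 difference (miR-204-5p inhibitor minus control inhibitor) was 0.075 in the dimmest 25% of features, -0.01 in the next 25%, -0.12 in the 25% above those and -0.205 in the brightest 25%. Of the 10 members, 3, ATF4, PPP1R15A and GDF15, lay in the brightest 25% by the mean of all 4 arrays and the other 7 in the 25% below it. That mean includes the group in which most members were higher. The control means of DDIT3 (4.795), ATF3 (5.05), CHAC1 (5.485) and CREBRF (5.56) lay below the medians of both control arrays. The part of this brightness trend in each value was not tested beyond the other scalings given beside it. No member value was below 4.79, against an upper limit of 3.965 for the mean level of the dimmest 25%. Of 11 markers of the carcinoma line and its drug resistance, 7 lay above the median feature, among them PAX8, KRT7, KRT8, KRT18, VIM and the efflux pump ABCB1, while EPCAM and CDH1 lay in the dimmest 25%. Of other cells' markers, 4 of 5 for leukocytes, 4 of 4 for endothelial cells and 4 of 5 for fibroblasts were measured, of which 1, 1 and 2 lay in the dimmest 25% and 1, 2 and 1 above the median feature. Log2 differences ran from 0.025 to 0.33 for the leukocyte markers, with PTPRC dim and CD68 bright in both groups. They ran from -1.075 for CDH5 to 0.47 for PECAM1 among endothelial markers and from -0.35 to 0.165 among fibroblast markers. Their part in the results was not tested. The labels do not say whether replicates came from separate cultures, so the spread between arrays behind each p-value may be technical. The p-values come from limma, which combines a feature's own spread between arrays with that over all features. The degrees of freedom were 4.78 for the part over all features and 2 for the feature's own.

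Of the 10 members, 9 had both miR-204-5p inhibitor arrays above both control arrays, and 1, ATF4, had both below. Among all features, 16.5% were higher without overlap and 33.8% were lower without overlap. The median log2 difference of the members was 0.675, against -0.07 for all features. At least 2-fold higher were 4 members, DDIT3, CREBRF, ATF3 and GDF15, and 0.298% of all features. The distance between the groups, from the nearest array of one to the nearest of the other, ran from 0.23 to 1.90 log2 units. Because the differences chose the members, nothing is read from these counts and distances.

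**Figure D1:**
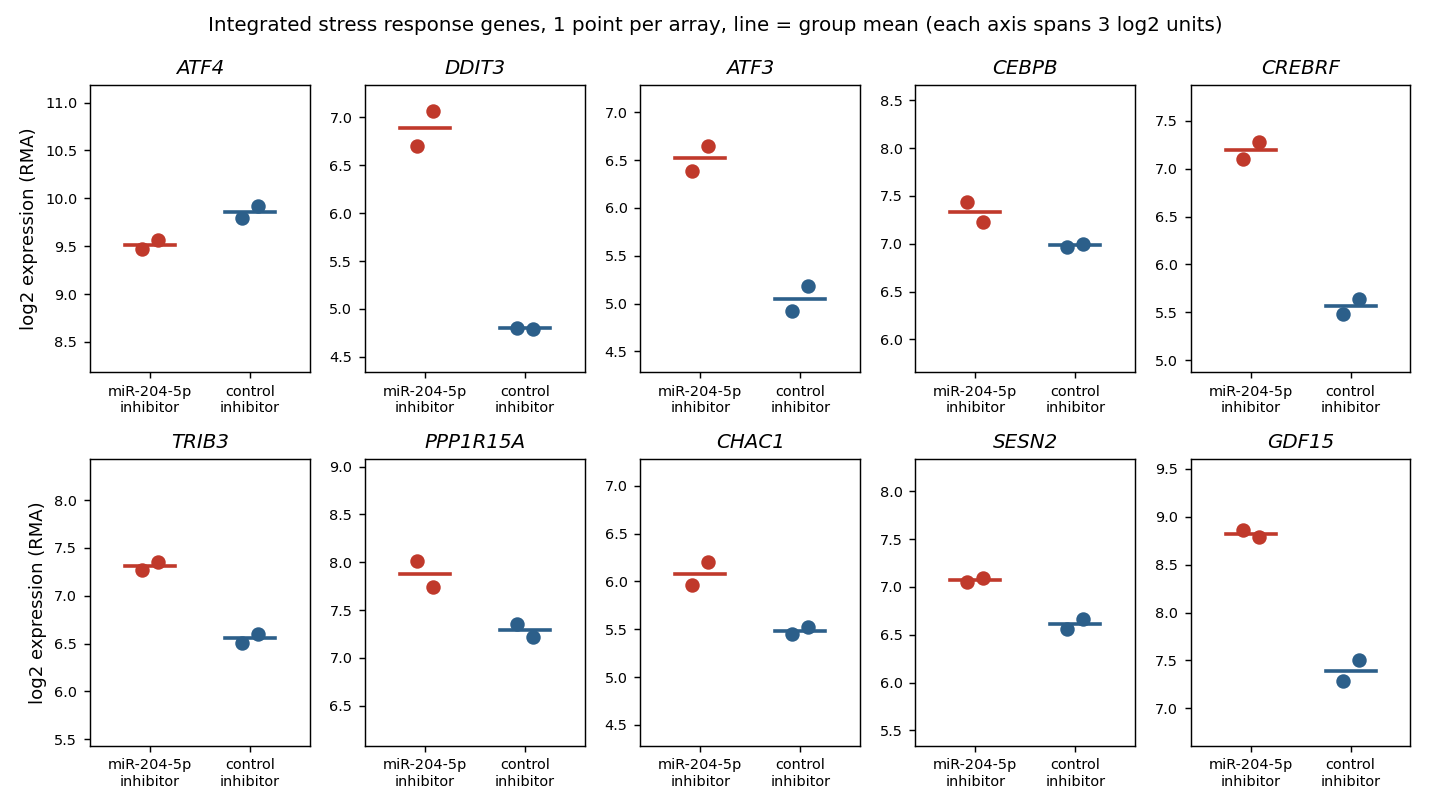
Log2 expression of the 10 members, 1 point per array and a line at each group mean, with the miR-204-5p inhibitor left of the control inhibitor in each panel. Every panel spans the same 3 log2 units, so the distance between the lines can be compared: it is largest for DDIT3 (2.09), CREBRF (1.63), ATF3 (1.47) and GDF15 (1.435), and ATF4 alone is lower with the miR-204-5p inhibitor.

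ATF4, the transcription factor at the centre of the response, had log2 values of 9.47 and 9.56 with the miR-204-5p inhibitor and 9.79 and 9.92 with the control inhibitor. The groups did not overlap, and both miR-204-5p inhibitor arrays were low. The mean was 9.515 ± 0.064 with the miR-204-5p inhibitor and 9.855 ± 0.092 with the control inhibitor (SD, n = 2 per group), a log2 difference of -0.34, which is small beside those of the DDIT3, ATF3 and GDF15 transcripts. A lower difference was seen in 16.5% of all features. After quantile normalization of the deposited values the ATF4 difference was -0.12, and with equal array medians it was -0.275, so its size depended on the scaling while it stayed below 0 under each scaling run. ATF4 protein and its translation were not measured.

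DDIT3 encodes CHOP, a C/EBP-family transcription factor that is nearly silent in unstressed cells and is known for promoting cell death under prolonged stress. Its log2 values were 6.70 and 7.07 with the miR-204-5p inhibitor and 4.80 and 4.79 with the control inhibitor. The control arrays were nearly equal, while the miR-204-5p inhibitor arrays differed from each other by 0.37, the widest replicate spread of any member. The mean was 6.885 ± 0.26 with the miR-204-5p inhibitor and 4.795 ± 0.0071 with the control inhibitor (SD, n = 2 per group), a log2 difference of 2.09 or 4.26-fold. That difference ranked 4 from the highest of 21448. In RefSeq the DDIT3 gene overlaps MARS1, the methionyl-tRNA synthetase, and the microRNA gene MIR616, which were not analysed here, so whether its probes separate them was not tested.

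ATF3, a stress-induced repressor of the ATF/CREB family, had log2 values of 6.39 and 6.65 with the miR-204-5p inhibitor and 4.92 and 5.18 with the control inhibitor. Its replicates lay 0.26 apart in each group and the groups were separated by 1.21. The mean was 6.52 ± 0.18 with the miR-204-5p inhibitor and 5.05 ± 0.18 with the control inhibitor (SD, n = 2 per group), a log2 difference of 1.47 or 2.77-fold, rank 17. CEBPB, a C/EBP-family partner that dimerises with ATF4 and CHOP, had 7.44 and 7.23 with the miR-204-5p inhibitor and 6.97 and 7.0 with the control inhibitor. Its difference was 0.35 on the log2 scale, or 1.27-fold, and the groups stood only 0.23 apart. A higher difference was seen in 7.95% of all features. CEBPB is an intronless gene with an antisense neighbour, CEBPB-AS1, that overlaps it in RefSeq.

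CREBRF is known as a negative regulator of CREB3, a membrane-bound transcription factor of the endoplasmic reticulum, and promotes its breakdown. Its log2 values were 7.10 and 7.28 with the miR-204-5p inhibitor and 5.48 and 5.64 with the control inhibitor. Both groups were tight and lay 1.46 apart. The mean was 7.19 ± 0.13 with the miR-204-5p inhibitor and 5.56 ± 0.11 with the control inhibitor (SD, n = 2 per group), a log2 difference of 1.63 or 3.10-fold, which ranked 10. CREB3 itself had 7.31 and 7.43 with the miR-204-5p inhibitor and 7.54 and 7.21 with the control inhibitor, a log2 difference of -0.005. Among 6 listed genes, the CREB3 family and CREBZF, the highest difference was that of CREB3L1, at 0.23.

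The feedback regulators TRIB3 and PPP1R15A had differences below those of the transcription factors DDIT3 and ATF3 and above that of CEBPB. TRIB3, a pseudokinase induced by ATF4 and CHOP that binds and restrains ATF4, had log2 values of 7.27 and 7.35 with the miR-204-5p inhibitor and 6.51 and 6.60 with the control inhibitor. Its replicates lay within 0.09 of each other in both groups, and the difference was 0.755 on the log2 scale, or 1.69-fold. PPP1R15A, the stress-induced subunit that directs protein phosphatase to eIF2alpha, had 8.01 and 7.74 with the miR-204-5p inhibitor and 7.36 and 7.22 with the control inhibitor. The difference was 0.585 on the log2 scale, or 1.5-fold, and it was 0.45 without miR-204-5p inhibitor array 1 and 0.72 without miR-204-5p inhibitor array 2. After quantile normalization it was 0.76, and that of TRIB3 was 0.90.

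Effector enzymes and metabolic sensors showed differences of a similar size. CHAC1, a gamma-glutamylcyclotransferase that degrades glutathione, had log2 values of 5.96 and 6.2 with the miR-204-5p inhibitor and 5.45 and 5.52 with the control inhibitor, a difference of 0.595 or 1.51-fold. SESN2 encodes sestrin 2, a leucine sensor that restrains the growth kinase complex mTORC1, and had 7.05 and 7.09 with the miR-204-5p inhibitor and 6.56 and 6.66 with the control inhibitor. The SESN2 difference was 0.46 on the log2 scale, or 1.38-fold, with replicates no more than 0.10 apart. Neither gene had overlapping groups.

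GDF15, a secreted cytokine of the TGF-beta superfamily that is released by stressed cells and acts on a brainstem receptor to lower appetite, had log2 values of 8.86 and 8.79 with the miR-204-5p inhibitor and 7.28 and 7.50 with the control inhibitor. The miR-204-5p inhibitor arrays agreed within 0.07 and lay 1.29 above the higher control array. The mean was 8.825 ± 0.049 with the miR-204-5p inhibitor and 7.39 ± 0.16 with the control inhibitor (SD, n = 2 per group), a log2 difference of 1.435 or 2.70-fold, rank 18. GDF15 is also a known p53 target and overlaps the microRNA gene MIR3189 in RefSeq. Its receptor gene GFRAL had 2.44 and 2.33 with the miR-204-5p inhibitor and 2.29 and 2.36 with the control inhibitor, among the dimmest 25% of features.

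**Figure D2:**
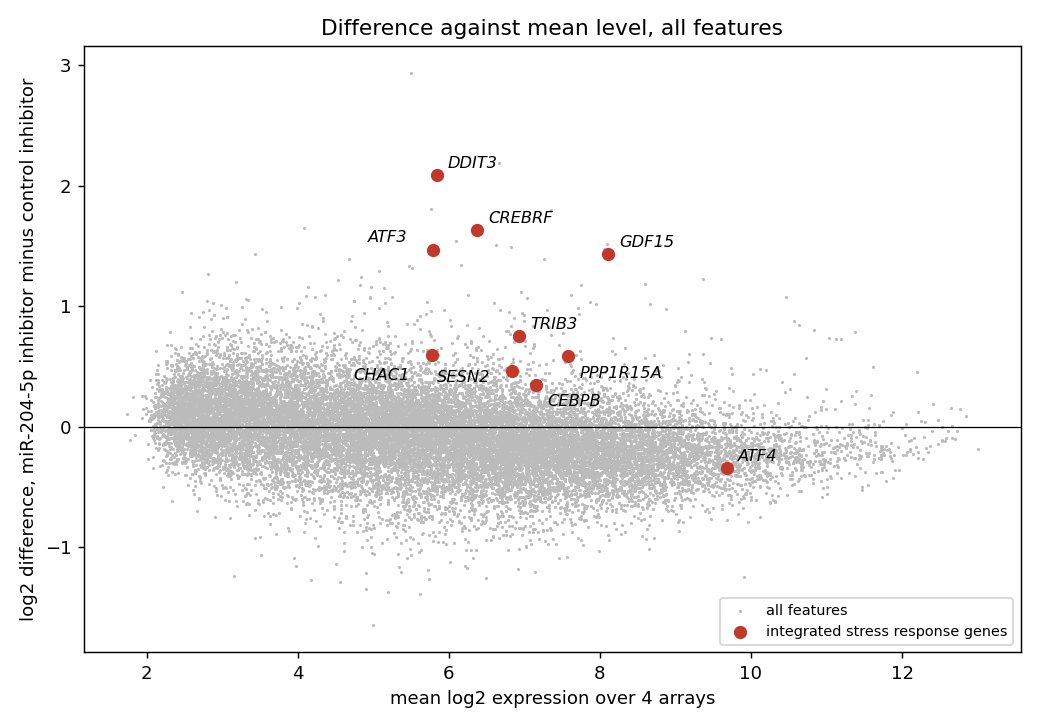
Log2 difference (miR-204-5p inhibitor minus control inhibitor, vertical) against the mean log2 level over 4 arrays (horizontal) for 21448 features in grey and the 10 members in red. DDIT3, CREBRF, ATF3 and GDF15 lie above 1, 5 members lie between 0.35 and 0.755, and ATF4 lies at -0.34 among bright features, whose median difference was also below 0.

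The order of the differences was DDIT3, CREBRF, ATF3, GDF15, TRIB3, CHAC1, PPP1R15A, SESN2, CEBPB and ATF4. Neighbours in the middle of that order were not separated: CREBRF, ATF3 and GDF15 differed from each other by at most 0.195 in log2 difference, less than the replicate spread of 0.26 of ATF3, and CHAC1 and PPP1R15A by 0.01. A distance of 0.68 divided the upper 4 from TRIB3. When each array was left out in turn, the DDIT3 difference ran from 1.905 to 2.275, that of CREBRF from 1.54 to 1.72, that of ATF3 from 1.34 to 1.6 and that of GDF15 from 1.325 to 1.545. The CEBPB difference, with the lowest of the positive values, ran from 0.245 to 0.455. With quantile normalization all 10 differences moved upward, as did the median of the brightest 25% of features, to -0.015. CEBPB was then at 0.51 and SESN2 at 0.60.

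**Figure D3:**
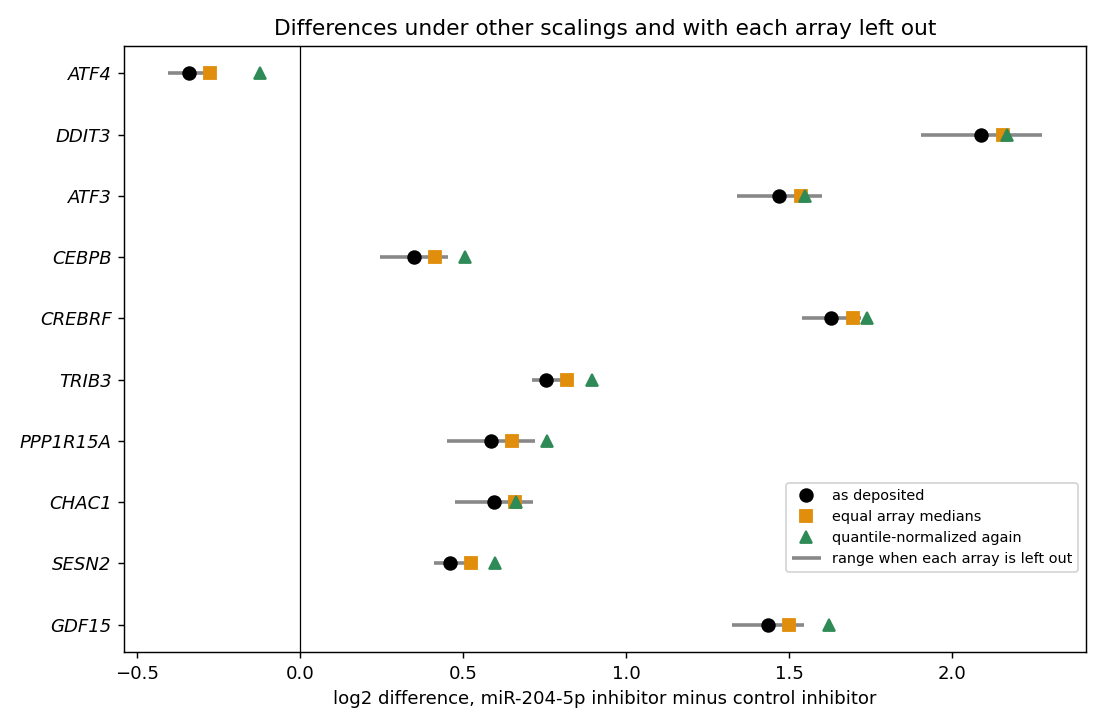
Log2 difference (miR-204-5p inhibitor minus control inhibitor) of the 10 members as deposited, with equal array medians and after a further quantile normalization, with a bar for the range when each of the 4 arrays is left out. The 9 positive differences stay above 0 under all of these, and ATF4 stays below 0 (between -0.405 and -0.12). Leaving out 1 array could not change a sign, because no member had overlapping groups.

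Sequences upstream of the members were set beside the RefSeq start sites to see which hold elements that stress factors are known to bind. RefSeq gave 16 windows for the 10 genes (GRCh38.p14), and the 250 bases before each start were searched on both strands. The C/EBP-ATF response element (TGATGNAA), at which ATF4 binds with a C/EBP partner, was in windows of CHAC1 and ATF3 and in 3.14% of all 35116 windows. The CHAC1 match lies within the longer string GTTGCATCA, which was also searched and was in 0.185% of windows. Any GTTGCATCA holds the letters of TGATGNAA on the opposite strand, so it is not a separate match. The ATF/CREB palindrome (TGACGTCA) was in the PPP1R15A window and in 1.65% of all windows. DDIT3 held an AP-1 element (TGANTCA), present in 6.57% of windows. The endoplasmic reticulum stress element (CCAAT and CCACG with 9 bases of any kind between them) was in 0 of the 16 member windows and 0.074% of all. With any last base (CCAAT and CCACN at the same distance), a form searched after the DDIT3 sequence had been seen, it was in DDIT3 and in 0.282% of all windows. ATF4, CEBPB, CREBRF, TRIB3, SESN2 and GDF15 held none of these letters in these windows. A match is a description of letters and not a bound site.

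The windows of the 4 members with a match are shown 5′ to 3′ in the direction of the gene, with matches in capitals, because they cover a large difference (DDIT3, ATF3) and a smaller one (CHAC1, PPP1R15A). Positions count back from the base before the start site. The DDIT3 window (chr12:57520515-57520764, minus strand) holds the AP-1 element from 241 to 235 bases and the stress element with any last base from 100 to 82 bases before the start. In ATF3 (chr1:212565157-212565406, plus strand) the C/EBP-ATF element lies from 191 to 184 bases before the more upstream of 2 RefSeq starts. In PPP1R15A (chr19:48872171-48872420, plus strand) the palindrome lies from 58 to 51 bases before the start. In CHAC1 (chr15:40953221-40953470, plus strand) the string GTTGCATCA, which holds the C/EBP-ATF match, lies from 210 to 202 bases before the start.
DDIT3 promoter: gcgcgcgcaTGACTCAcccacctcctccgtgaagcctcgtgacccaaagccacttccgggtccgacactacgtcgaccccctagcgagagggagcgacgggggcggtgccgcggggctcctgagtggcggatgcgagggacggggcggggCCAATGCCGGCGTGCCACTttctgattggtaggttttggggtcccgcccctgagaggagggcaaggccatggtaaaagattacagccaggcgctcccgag
ATF3 promoter: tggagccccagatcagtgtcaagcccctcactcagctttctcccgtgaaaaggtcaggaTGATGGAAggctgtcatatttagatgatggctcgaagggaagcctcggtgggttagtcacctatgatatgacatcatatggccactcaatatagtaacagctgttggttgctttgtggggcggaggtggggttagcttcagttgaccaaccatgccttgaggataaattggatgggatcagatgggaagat
PPP1R15A promoter: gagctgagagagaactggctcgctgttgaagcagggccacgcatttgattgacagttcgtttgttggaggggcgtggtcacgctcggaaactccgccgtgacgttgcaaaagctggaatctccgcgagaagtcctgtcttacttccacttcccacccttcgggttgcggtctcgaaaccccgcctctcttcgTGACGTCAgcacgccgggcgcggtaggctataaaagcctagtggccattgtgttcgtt
CHAC1 promoter: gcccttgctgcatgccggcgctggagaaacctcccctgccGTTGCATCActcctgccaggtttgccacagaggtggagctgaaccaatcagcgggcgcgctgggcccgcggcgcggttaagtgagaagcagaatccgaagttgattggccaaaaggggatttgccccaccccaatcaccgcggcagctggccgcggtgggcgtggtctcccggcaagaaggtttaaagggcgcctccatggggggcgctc

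The rest of the pathway was described with 13 lists of 154 genes that are not members, of which 145 were measured under a symbol. Fitted with limma over all features, 0 of the 145 passed an adjusted p of 0.05 in either direction, against 0.0513% of all features higher and 0% lower. At an unadjusted p under 0.05, 20 were higher and 21 lower, against 5.11% of all features higher and 12.8% lower. That split turned with the scaling: it was 26 higher and 5 lower after quantile normalization, against 6.57% and 7.1% of all features, and 22 higher and 13 lower with equal array medians, against 7.49% and 9.06%. With either control array left out, fewer of the 145 and fewer of all features passed at an unadjusted p under 0.05 in each direction. Lower counts in such fits, here and for the single lists below, are therefore not particular to these genes. The 145 had a median difference of -0.13. When limma's prior variance followed intensity, 13 of them passed an adjusted p of 0.05 as higher and 10 as lower, against 1.02% of all features higher and 6.09% lower. With features below the median level left out 8 and 4 did, against 1.34% and 8.07% of the features kept. No listed gene passed after quantile normalization, with equal array medians or with any array left out.

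Upstream of the members, no kinase or translation factor passed the adjusted threshold in the fit without an intensity trend or filter. With the intensity trend EIF2D passed as lower (adjusted p = 0.042). Without the trend, 5.11% of all features were higher and 12.8% lower at an unadjusted p under 0.05, and 6.57% and 7.1% after quantile normalization. Of 9 kinases and sensors, 1 was higher and 3 lower at that p, against 1 and 1 after quantile normalization. Those counts were 1 and 0 without control array 1 and 0 and 1 without control array 2. EIF2AK3, which encodes PERK, the eIF2alpha kinase of the endoplasmic reticulum, had a log2 difference of 0.525 (SE 0.177, adjusted p = 0.22), with 6.48 and 6.73 with the miR-204-5p inhibitor and 6.24 and 5.92 with the control inhibitor. OMA1, the mitochondrial protease that cleaves DELE1 to signal mitochondrial stress, had -0.62 (SE 0.146, adjusted p = 0.16), and DELE1 itself had -0.46 (SE 0.153, adjusted p = 0.22). All 3 had groups that did not overlap, but they were named for their large statistics, so nothing is read from this. Among all features, 16.5% were higher and 33.8% lower without overlap. Of 11 eIF2 and eIF2B factors, 0 were higher and 3 lower at an unadjusted p under 0.05: EIF2D (-0.555), EIF2A (-0.535) and EIF2S1, the eIF2alpha subunit itself (-0.465). Without miR-204-5p inhibitor array 1, EIF2A was at -0.245 and EIF2S1 at -0.22. Without miR-204-5p inhibitor array 2, EIF2A was at -0.825 and EIF2S1 at -0.71. After quantile normalization 1 of the 11 passed at an unadjusted p under 0.05, as lower, and EIF2S1 was at -0.26. The list median was -0.295 as deposited and -0.095 after that step. Of the 4 phosphatase partners of PPP1R15A, none passed at an unadjusted p under 0.05. The catalytic subunits PPP1CC, PPP1CA and PPP1CB had differences of -0.335 (SE 0.143), -0.23 (SE 0.151) and -0.215 (SE 0.172), and the constitutive counterpart PPP1R15B had -0.185 (SE 0.154). PPP1CC passed with the intensity trend (adjusted p = 0.032) but was at -0.135 after quantile normalization, and PPP1CB was at -0.03 without miR-204-5p inhibitor array 1.

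No relative of the members passed the adjusted threshold. At an unadjusted p under 0.05, 5.11% of all features were higher and 12.8% lower, and 6.57% and 7.1% after quantile normalization. Among 11 measured ATF and C/EBP relatives, 0 were higher and 1, CEBPE, was lower at that p, and the median was -0.16. With equal array medians 0 passed, and after quantile normalization 1 was higher and 1 lower. CEBPD, a C/EBP factor of inflammation, had -0.40 (SE 0.179) and CREB5 had -0.32 (SE 0.142). ATF1, ATF5, ATF7 and CREM were not analysed here. Of 6 listed genes, the CREB3 family and CREBZF, 0 were higher and 1, CREB3L2, was lower at an unadjusted p under 0.05. CREB3L2, a factor of the secretory pathway, had -0.36 (SE 0.15), while the dim CREB3L4 had 0.145 (SE 0.151). Of 5 paralogs, the tribbles TRIB1 and TRIB2, the sestrins SESN1 and SESN3 and the glutathione-degrading enzyme CHAC2, 0 were higher and 1, CHAC2, was lower at an unadjusted p under 0.05. CHAC2 had 6.56 and 6.37 with the miR-204-5p inhibitor and 7.0 and 6.76 with the control inhibitor, while CHAC1 was higher. After quantile normalization or with equal array medians neither CREB3L2 nor CHAC2 passed at an unadjusted p under 0.05. TRIB1 had a difference of 0.12 (SE 0.149) and SESN3, a dim feature, -0.215 (SE 0.183).

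Downstream targets lay on both sides of 0. Among all features, 5.11% were higher and 12.8% lower at an unadjusted p under 0.05, and 6.57% and 7.1% after quantile normalization. Of 27 genes of amino acid supply, 3 were higher and 5 lower at that p, and the median was -0.125. After quantile normalization 4 were higher and 0 lower, with a median of 0.01, and 0 were lower with control array 1 or control array 2 left out. Transporters were on both sides. Higher were SLC7A11, the cystine transporter, with 7.71 and 7.43 with the miR-204-5p inhibitor and 6.02 and 6.13 with the control inhibitor (difference 1.495, SE 0.161, adjusted p = 0.069), its partner chain SLC3A2 (0.88, SE 0.142, adjusted p = 0.12) and the leucine transporter SLC7A5 (0.48, SE 0.153, adjusted p = 0.21). Lower were the cationic amino acid transporter SLC7A1 (-0.36, SE 0.15), the glutamine transporter SLC1A5 (-0.445, SE 0.152), EPRS1, the glutamyl-prolyl-tRNA synthetase (-0.45, SE 0.143), PHGDH, the entry enzyme of serine synthesis (-0.47, SE 0.162), and CBS, an enzyme that uses homocysteine (-0.43, SE 0.156). With the intensity trend the 3 transporters passed at an adjusted p of 2.4e-04 for SLC7A11, 1.4e-04 for SLC3A2 and 0.012 for SLC7A5. In the same fit SLC7A1 (0.041), PHGDH (0.046) and EPRS1 (0.047) passed as lower.

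The shares of all features at an unadjusted p under 0.05 were 5.11% higher and 12.8% lower, and 6.57% and 7.1% after quantile normalization. Of 10 targets in death and autophagy, 5 were higher and 1 lower at that p, with a median of 0.14. Of these, 2 and 3 were higher and 0 lower without control array 1 and without control array 2, and 5 and 0 after quantile normalization. SQSTM1, the autophagy receptor p62, had 10.96 and 11.05 with the miR-204-5p inhibitor and 9.91 and 9.94 with the control inhibitor, a difference of 1.08 (SE 0.141, 95% interval 0.745 to 1.42, adjusted p = 0.10). GADD45A, a growth arrest gene, had 9.52 on both miR-204-5p inhibitor arrays and 8.73 and 8.72 on the control arrays (difference 0.795, SE 0.138, adjusted p = 0.13). ERO1B, an oxidase of the endoplasmic reticulum, had a difference of 0.83 (SE 0.209), while its paralog ERO1A, a reported CHOP target, had -0.63 (SE 0.212). Both ERO1B control values, 3.61 and 3.94, lay below the limit of 3.965 given above for the dimmest features. ERO1A had 9.1 and 9.69 with the miR-204-5p inhibitor, arrays that differed widely, and 10 and 10.05 with the control inhibitor. After quantile normalization ERO1A was at -0.415 and ERO1B at 0.806. With the intensity trend SQSTM1 (adjusted p = 2.4e-05), GADD45A (9.4e-04) and MAP1LC3B (0.042) passed as higher and ERO1A (0.022) as lower. Among the 10 targets in growth control and secretion, 4 were higher and 1 lower at an unadjusted p under 0.05, with a median of 0.23. The counts were the same after quantile normalization, 2 and 1 without control array 1 and 0 and 0 without control array 2. KLHL24, a ubiquitin ligase adaptor, had 0.71 (SE 0.179) and DDIT4, an inhibitor of mTORC1, had 0.695 (SE 0.176). The translation repressor EIF4EBP1 had -0.54 (SE 0.147). With the intensity trend KLHL24 (adjusted p = 0.020), DDIT4 (0.039) and STC2 (0.029) passed as higher and EIF4EBP1 (0.014) as lower.

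**Figure D4:**
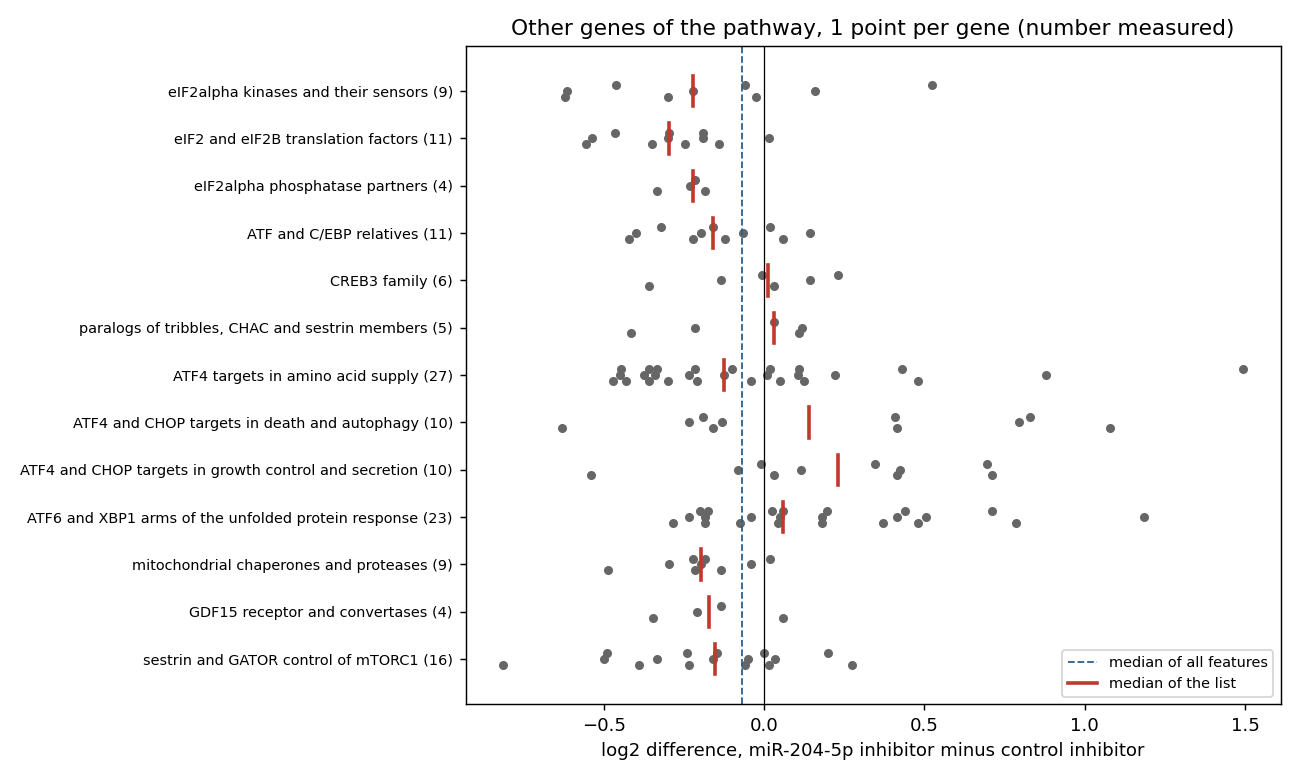
Log2 difference (miR-204-5p inhibitor minus control inhibitor) of 145 listed genes that are not members, 1 point per gene, with a red line at each list's median and a dashed line at the median of all features (-0.07). Medians run from -0.295 for eIF2 and eIF2B factors to 0.23 for targets in growth control and secretion, and each of the lists with medians above 0.1 also holds genes below 0.

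Parallel stress pathways also had no gene past the adjusted threshold in the fit without an intensity trend or filter. With the intensity trend, HERPUD1 (adjusted p = 7.8e-05), HSPA5 (3.8e-04), HYOU1 (0.014) and DNAJB11 (0.039) passed as higher. In the same fit TRAP1 (0.020), NPRL2 (0.041) and SEH1L (0.0096) passed as lower, and of all features 1.02% were higher and 6.09% lower. In the fit without trend or filter, 5.11% of all features were higher and 12.8% lower at an unadjusted p under 0.05. After quantile normalization those shares were 6.57% and 7.1%. In the ATF6 and XBP1 arms of the unfolded protein response, 7 of 23 genes were higher and 0 lower at that p. Of their differences 15 were above 0, and the median was 0.06. After quantile normalization 9 were higher and 0 lower, with a median of 0.25, and 2 and 3 were higher without control array 1 and without control array 2. HERPUD1, a membrane protein of endoplasmic reticulum protein degradation, had 9.14 and 9.25 with the miR-204-5p inhibitor and 7.96 and 8.06 with the control inhibitor (difference 1.185, SE 0.144, adjusted p = 0.098). HSPA5, the main chaperone there, had a difference of 0.785 (SE 0.149, adjusted p = 0.14) and DNAJB9, its co-chaperone, 0.71 (SE 0.198, adjusted p = 0.18). Of 9 mitochondrial chaperones and proteases, 0 were higher and 1, TRAP1, was lower at an unadjusted p under 0.05 (-0.485, SE 0.148), and HSPD1 and HSPE1 had -0.22 and -0.295. After quantile normalization 0 of the 9 were lower. Of 4 genes around GDF15, none passed at an unadjusted p under 0.05, with the receptor kinase RET, GFRAL's partner, at -0.21 (SE 0.154) and the proprotein convertase FURIN at -0.345 (SE 0.234). FURIN rested on 1 array: it was at -0.035 without miR-204-5p inhibitor array 1, and RET was at -0.085 without control array 1. Among 16 genes through which sestrins act on mTORC1, 0 were higher and 4 lower at an unadjusted p under 0.05, against 2 and 1 after quantile normalization and 0 and 1 with control array 1 or control array 2 left out. NPRL2, a subunit of the inhibitory GATOR1 complex, had 4.45 and 4.12 with the miR-204-5p inhibitor and 5.14 and 5.06 with the control inhibitor (difference -0.815, SE 0.166, adjusted p = 0.14), and the GATOR2 subunits SEH1L and MIOS had -0.50 and -0.49.

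Outside the pathway, the features whose profiles over the 4 arrays lay nearest to that of DDIT3 were TM4SF19, EGR1, TXNIP, IL7R and the read-through TM4SF19-DYNLT2B, by the root-mean-square distance of values centred on each feature's mean. TM4SF19 was 0.093 log2 units away and EGR1, an immediate early transcription factor, 0.125. TXNIP, an arrestin-like inhibitor of thioredoxin, was 0.161 away, with 8.0 and 8.5 with the miR-204-5p inhibitor and 6.38 and 6.52 with the control inhibitor. Of the members, CREBRF lay nearest to DDIT3 at 0.247, then ATF3 at 0.327 and GDF15 at 0.372, and ATF4 lay farthest at 1.22. With 4 arrays in 2 groups such a distance mostly reflects the size of the difference.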

How the data were processed

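Total RNA from 4 samples of HeyA8-MDR cells was hybridised to 1-colour arrays. The authors deposited log2 expression values. Per the submitters' processing notes these came from RMA in Transcriptome Analysis Console 4.0. Its parameters and the genome build are not given in the sources used here. The number of arrays limits the precision.

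Symbols came from the platform annotation, which names 17709 features and leaves 3739 unnamed. Where listed genes had several features, the brightest by the mean of 4 arrays was used. The comparison of the 2 groups used lmFit and eBayes of limma 3.58.1 (R 4.3.3) without a replicate block, with Benjamini-Hochberg adjustment over all 21448 features and a threshold of 0.05. An exact permutation of 2 against 2 arrays cannot go below p = 0.333, so single values were not tested that way. Tested on simulated data, the fit recovered 0% of features changed 2-fold and 98.1% of those changed 4-fold, with 5.13% of calls at 4-fold false. Adjusted p-values without a call therefore say little about differences near 2-fold.

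The members and gene lists were chosen with earlier results of these data known. Named genes were the members, the 3 genes of each list with the largest absolute moderated statistic, and the 5 features nearest to DDIT3. SLC7A5, SLC7A1, SLC1A5, PHGDH, CBS, ERO1A, PPP1R15B and the other listed or marker genes named beyond these were chosen after their values were seen. Alternatives tried were an intensity trend, quantile normalization, equal medians, filters on dim features, a replicate block and leaving out each array. Promoter and microRNA sequences are RefSeq's (GRCh38.p14), and all 10 members matched by symbol.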

Additional observations from a re-analysis of the deposited data

How the results depend on the processing

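The median difference of the 10 members, 0.675 as deposited, was 0.83 after quantile normalization and 0.74 with equal array medians, and 0.682 to 0.755 with each array left out. Each member had 1 feature, so taking the dimmest feature changed nothing. Over the other settings (2 scalings and 4 left-out arrays) the 10 members kept their signs in all 60 repeats, of which 8 moved by more than 1 SD of the replicates. No member had overlapping groups, so leaving out 1 array could not change a sign, and the kept signs are no test. Listed genes past the threshold numbered 0 as deposited, 23 with the intensity trend, 3 without the dimmest 25% of features, 12 without the features below the median, and 0 with each array left out. Features past the threshold numbered 11 as deposited, 1525 with the trend (219 higher, 1306 lower), 38 and 1011 with those filters (28 and 144 higher, 10 and 867 lower), and 0 after quantile normalization and with each array left out. With equal array medians 10 features passed, 10 higher and 0 lower. The cause of these shifts was not tested, but a fit on 3 arrays has fewer residual degrees of freedom. At an unadjusted p under 0.05 the split of all features was 1096 higher and 2735 lower as deposited, 1607 and 1943 with equal medians, and 1409 and 1523 after quantile normalization. With the replicate number as a block, 0 features and 0 listed genes passed. Same-numbered arrays did not deviate together (correlation of deviations 0.0058), and the labels give no shared origin. Over all features the correlation was 0.986 between the miR-204-5p inhibitor arrays and 0.995 between the control arrays. Between arrays of different groups it ran from 0.984 to 0.989. The miR-204-5p inhibitor arrays were thus less alike than the most alike arrays of different groups. With each array left out, SESN3 ran from -0.435 to 0.005 (above 0 without control array 2) and PCSK5 from -0.59 to 0.32 (above 0 without miR-204-5p inhibitor array 1, and 0.045 without control array 1). Detection calls were not used here, which leaves dim features such as SESN3 and PCSK5 uncertain.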
